A study of Mus musculus with 5 samples.

Results

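Transcripts of 9 genes that write, read and erase DNA methylation were followed in mouse leukaemia cells whose libraries carry 2 Plcg1 genotype labels. The genes were taken by symbol from the 27526 genes of the deposited normalized table, and all 9 were present: Dnmt1, Dnmt3a, Dnmt3b, Uhrf1, Tet1, Tet2, Tet3, Idh1 and Idh2. All 9 also passed the filter on low counts, which left 16120 of 46603 counted genes. RNA came from cells selected for the surface receptor Kit in a leukaemia model driven by AML1-ETO9a, a shortened form of the fusion of RUNX1 with RUNX1T1. In 3 libraries (deleted 2, deleted 4 and deleted 6) the label is Plcg1 -/-, by conditional deletion of phospholipase C-γ1, and in 2 libraries (wild-type 1 and wild-type 3) it is Plcg1 +/+. Per the labels all 5 share the AML1-ETO9a model and the selection for Kit. The sources used here give neither the Cre line nor the strain, age or number of the mice behind a library. The p-values can therefore speak only to the spread among these 5 samples, and that spread may be technical.

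DNA methylation is the addition of a methyl group to cytosine, in mammals mostly where a guanine follows (CpG). Dnmt3a and Dnmt3b set new marks, and Dnmt1 copies existing marks onto the new strand after replication, guided by Uhrf1, which binds hemimethylated CpG sites. The Tet dioxygenases oxidise methylcytosine and so start its removal, using 2-oxoglutarate, which the isocitrate dehydrogenases Idh1 (cytosolic) and Idh2 (mitochondrial) produce. In human acute myeloid leukaemia DNMT3A, TET2, IDH1 and IDH2 are recurrently mutated. Read counts per gene hold no information on mutations, on protein or on methylation itself.

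The libraries differed in more than the Plcg1 label. Gene counts ran from 52560713 to 57133771 in the libraries labelled deleted and were 37306507 and 51682298 in those labelled wild-type. Plcg1 itself was at 53.0, 26.9 and 37.1 CPM (counts scaled to the same library size) in deleted 2, 4 and 6, against 22.1 and 34.0 CPM in wild-type 1 and 3. Totals per gene include exons outside a deleted part, so they cannot check the deletion, and every direction below refers to the labels. Runx1t1, the mouse gene matching the fusion partner ETO, was at 106, 74.0 and 13.5 CPM in deleted 2, 4 and 6, against 0.121 and 0.234 CPM in the wild-type libraries. The stem cell factor Hoxa9 was at 0.841, 1.66 and 0.0678 CPM in deleted 2, 4 and 6, against 145 and 128 CPM in wild-type 1 and 3. What goes with these genes and what goes with the Plcg1 label cannot be told apart, because they divide the libraries in the same way. The near absence of Runx1t1 from both wild-type libraries goes against their AML1-ETO9a label, if reads of the fusion align to the mouse gene, so what a deleted minus wild-type value compares is in doubt beyond the labels. Deleted 6 stood apart from the other 4 libraries: Kit was at 3.08 CPM there, against 26.8 to 672 CPM elsewhere, and Xist was at 122 CPM, against at most 0.0526 CPM elsewhere. So low a Kit level as in deleted 6 goes against the label of Kit-positive cells. Ddx3y, a gene of the Y chromosome, reached only 0.271 CPM in deleted 6, while every other library held 64.0 CPM or more. By Xist and Ddx3y, deleted 6 thus looked female and the other 4 libraries male. It was also the only library from sequencing lane 5, as wild-type 1 was from lane 3. Leaving out deleted 6 therefore also removes a difference in sex and a lane, and their part was not tested. The difference in Kit between the labels stays in that comparison, and its part was not tested either. Each member is therefore tested below with all 5 libraries and without deleted 6.

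The cell markers moved with the same libraries. The 12 neutrophil and granule markers summed to 14311, 16037 and 117 CPM in deleted 2, 4 and 6, against 18439 and 20318 CPM in wild-type 1 and 3. The 12 monocyte and macrophage markers summed to 10507, 21330 and 82587 CPM in the deleted libraries, against 13275 and 12880 CPM in the wild-type libraries. The 12 mast cell and basophil markers summed to 10976, 5061 and 103 CPM in deleted 2, 4 and 6, against 112 and 181 CPM in the wild-type libraries. None of these markers was at 0 in any library. Stem and progenitor markers summed to 1461, 840 and 103 CPM in deleted 2, 4 and 6, against 644 and 652 CPM in wild-type 1 and 3. Erythroid and megakaryocyte markers summed to 229 to 396 CPM in the deleted libraries, against 64.0 and 76.7 CPM in the wild-type libraries, mostly through Pf4 and Vwf, with Hba-a1 at 0 in deleted 6. Lymphoid markers summed to 9.08 to 26.3 CPM in the deleted libraries, against 19.8 and 25.5 CPM in wild-type 1 and 3, and the T cell genes Cd3e and Cd3g and the natural killer gene Ncr1 were at 0 in all 5. With all 5 libraries edgeR called none of these markers, and 0% of all tested genes. Without deleted 6 it called 12 of 12 mast cell and basophil markers higher, 2 monocyte and macrophage markers higher (Adgre1 and Mrc1) and 2 lower (Ccr2 and Ly6c2), and 5 of 12 neutrophil and granule markers lower. In the same fit 7 stem and progenitor markers were higher and 4 lower, 4 of 8 tested erythroid and megakaryocyte markers were higher, and 1 of 4 tested lymphoid markers, Cd79b, was lower. Of all 15787 genes tested in that fit, 7.89% were called higher and 5.07% lower. Whether these differences in cell markers play a part in the values below was not tested. In RNA from a mixture, fewer cells of a type and less RNA per cell cannot be told apart.

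Dnmt3a (ENSMUSG00000020661.14) was the only member with all libraries labelled deleted above both labelled wild-type, an arrangement that 22.4% of all tested genes had. The gene spans 3806007 to 3914443 on the plus strand of mouse chromosome 12 (GRCm38, the build of mm10, GENCODE M21), with 18 annotated transcripts. It had 119, 157 and 231 CPM in deleted 2, 4 and 6, against 40.9 and 50.5 CPM in wild-type 1 and 3. The groups did not overlap, deleted 6 was the highest, and the lowest deleted library was still well above the highest wild-type library. The means were 169 ± 56.7 CPM (SD, n = 3) in deleted and 45.7 ± 6.82 CPM (SD, n = 2) in wild-type libraries, a 3.70-fold difference. On the log2 scale deleted minus wild-type came to 1.89 ± 0.35 (SE). edgeR's quasi-likelihood test gave it an unadjusted p of 0.00251 and, over all 16120 genes, an adjusted p of 0.157, so it was not called at an adjusted p under 0.05. Without deleted 6 it rose by 1.61 ± 0.19 on the log2 scale (edgeR adjusted p = 0.00400).

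The call on Dnmt3a thus depended on the test. With all 5 libraries DESeq2 gave a log2 fold change of 1.88 ± 0.41 (adjusted p = 0.000222), limma-voom with library quality weights gave 1.72 ± 0.18 (adjusted p = 0.00596), and edgeR with no filter on low counts gave 1.89 ± 0.34 (adjusted p = 0.0422). In sequencing lane 4, the only lane in the file names that holds both labels, deleted 2 and 4 against wild-type 3 gave 1.46 ± 0.24 (edgeR adjusted p = 0.0702). The lone wild-type library is there assumed to vary like the deleted ones. The direction was the same in every setting run, between 1.46 and 2.09. Of all tested genes, 92.5% had a lower log2 fold change than Dnmt3a in the 5 libraries.

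Dnmt3a carries 3 RefSeq start sites on GRCm38.p6, and its upstream starts lie in a dense run of CpG. The 300 bases around each, from 250 before to 50 after, held 46, 47 and 18 CpG, against a median of 7 over 32851 such windows of all genes and 23 over the 15 windows of the members. Of all windows, 98.35% held fewer CpG than the first. The stretch upstream of the first start, chr12:3806830-3806979 on the plus strand, holds 21 CpG in 150 bases and lies outside the annotated exons. It is shown, CpG in capitals, because this gene, whose protein sets new marks on CpG, starts in a CpG-rich window.
Dnmt3a: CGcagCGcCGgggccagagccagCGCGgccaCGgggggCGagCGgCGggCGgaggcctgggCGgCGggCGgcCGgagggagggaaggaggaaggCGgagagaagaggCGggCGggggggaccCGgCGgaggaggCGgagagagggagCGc
The gene's internal start, at 3891744, produces in mouse a shorter protein known as Dnmt3a2, and counts per gene do not tell these transcripts apart.

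An antisense gene overlaps Dnmt3a. Dnmt3aos, on the minus strand at 3859293 to 3862244, shares 133 exon bases with it. The library kit did not mark the strand, so reads from the shared bases cannot be assigned between the pair. As Dnmt3aos lies inside the span of Dnmt3a, unspliced Dnmt3a RNA could also add to its counts, which was not tested. Dnmt3aos was at 5.17, 6.55 and 13.0 CPM in deleted 2, 4 and 6, against 1.18 and 1.84 CPM in wild-type 1 and 3. Its levels were ordered over the 5 libraries like those of Dnmt3a, and it had at most 573 counts in a library, against 10200 for Dnmt3a in the same library.

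**Figure D1:**
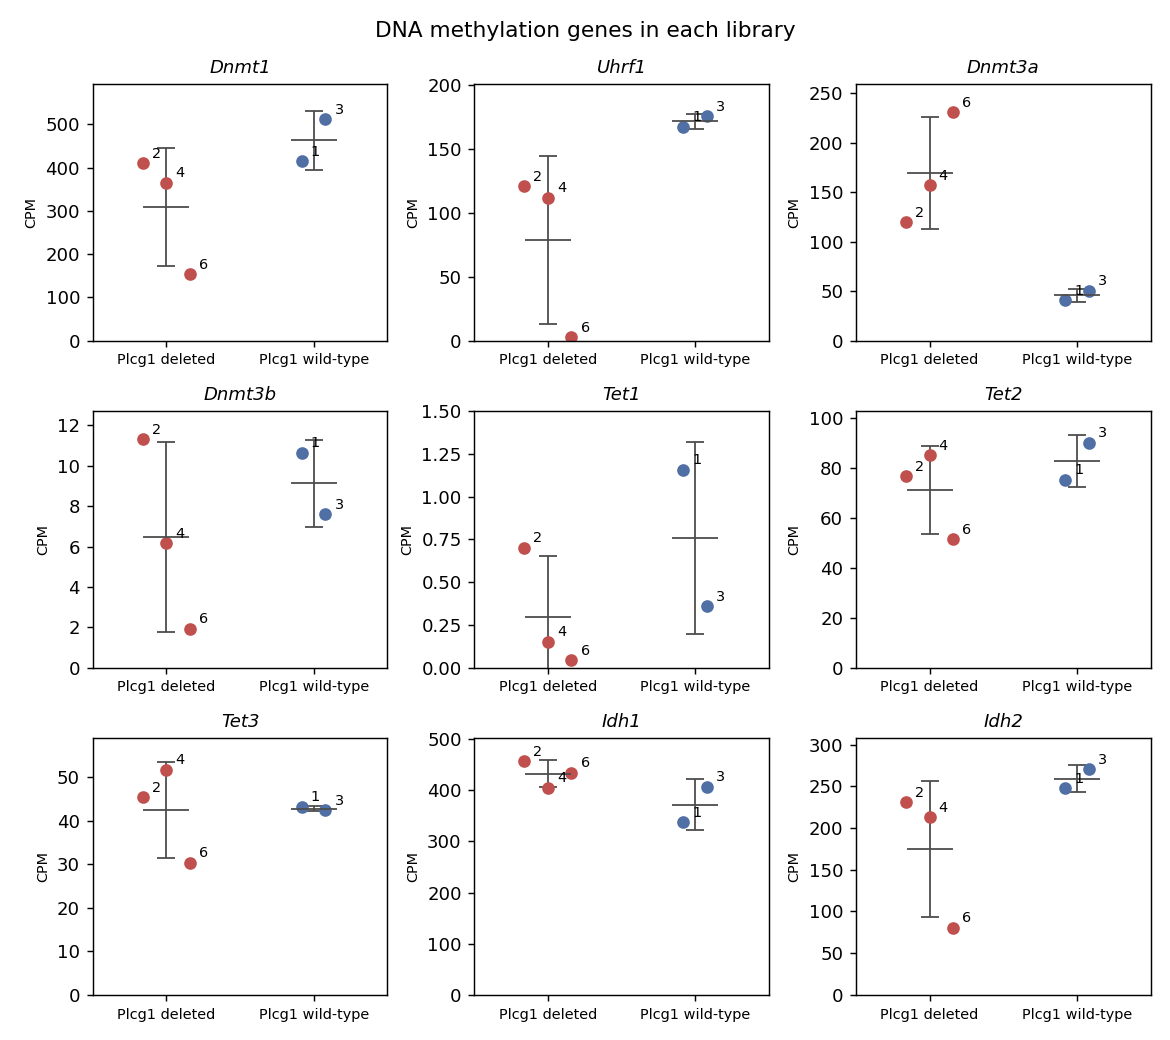
CPM of each member (vertical axis, linear, from 0) in the libraries labelled deleted (red, left) and wild-type (blue, right). Numbers name the libraries, horizontal bars are group means and error bars are SD (n = 3 and n = 2), drawn down to 0 where they would pass it. Dnmt3a is higher in all 3 deleted libraries, while deleted 6 is the lowest library for every member except Dnmt3a and Idh1.

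Uhrf1, the reader that brings Dnmt1 to replicated DNA (ENSMUSG00000001228.13, chromosome 17, 56303321 to 56323486, plus strand), was lower in all libraries labelled deleted and close to absent in deleted 6. It had 121, 112 and 2.71 CPM in deleted 2, 4 and 6, against 167 and 176 CPM in wild-type 1 and 3. Deleted 6 held 120 Uhrf1 counts and lay 63.3-fold below the wild-type mean, while deleted 2 and 4 averaged 0.678 of that mean. With all 5 libraries edgeR gave a log2 fold change of -1.13 ± 1.30 (SE; adjusted p = 0.665), an error larger than the difference itself. Without deleted 6 Uhrf1 fell by 0.55 ± 0.13 on the log2 scale (edgeR adjusted p = 0.0377). In lane 4 the log2 fold change was -0.58 ± 0.15 (edgeR adjusted p = 0.150).

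Dnmt1, the maintenance methyltransferase (ENSMUSG00000004099.14, chromosome 9, 20907209 to 20959888, minus strand), followed the same order with a smaller span. It had 410, 365 and 154 CPM in deleted 2, 4 and 6, against 416 and 512 CPM in wild-type 1 and 3. Deleted 2 lay just under wild-type 1, so the groups are apart by a narrow margin, and deleted 6 was 3.02-fold below the wild-type mean. Its log2 fold change in edgeR came to -0.58 ± 0.45 (SE) with all 5 libraries (adjusted p = 0.543) and to -0.25 ± 0.16 once deleted 6 was left out (adjusted p = 0.386). Neither passed the test. The ratio of Dnmt1 to Uhrf1 was 1.76 and 1.71 on the log2 scale in deleted 2 and 4 and 5.82 in deleted 6, against 1.31 and 1.54 in wild-type 1 and 3. Uhrf1 was thus lower relative to Dnmt1 in every deleted library, by a mean difference of 1.67 that was 0.31 without deleted 6.

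Start sites of Uhrf1 and Dnmt1 hold letters that the E2F transcription factors of the cell cycle are known to bind, and they are shown as the motif matches found among the members. Other members without a match, such as Idh2, were also lowest in deleted 6. The search took TTTCCCGC, TTTGGCGC, TTTCGCGC and TTTGCCGC on both strands in the same RefSeq windows of 300 bases (none of the 4 is the reverse complement of another). They occur in 744 of 32851 windows (2.27%) and in 704 of 27025 genes (2.61%). Of the 9 members, Uhrf1 and Dnmt1 hold them, in 2 of 15 windows, and of the 19 genes of the S phase list below with a window 8 do (42.1%). Each of the 4 contains a CpG, and the median CpG was 23 in the windows of the members and 24 in those of the S phase list. Over all windows it was 7, so these shares are not matched for CpG. In Uhrf1 the letters begin 185 bases upstream of the start at 56304313. The first 150 bases of that window, chr17:56304063-56304212 on the plus strand (GRCm38.p6), have the match in capitals.
Uhrf1: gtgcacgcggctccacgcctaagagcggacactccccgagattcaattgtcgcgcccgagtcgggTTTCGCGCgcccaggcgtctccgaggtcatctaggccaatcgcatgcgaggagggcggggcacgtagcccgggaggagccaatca
In Dnmt1 a match on the opposite strand, read here as GCGCGAAA, begins 219 bases upstream of the start at 20952623, inside a first exon of another transcript, in chr9:20952824-20952853 on the minus strand, and a further one (TTTGGCGC) begins 33 bases downstream of that start.
Dnmt1: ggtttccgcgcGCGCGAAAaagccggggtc
A match of letters is a description and does not show that a factor binds.

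Dnmt3b, the other enzyme that sets new marks (ENSMUSG00000027478.14, chromosome 2, 153649450 to 153687730, plus strand), did not separate the labels. It had 11.3, 6.15 and 1.92 CPM in deleted 2, 4 and 6, against 10.7 and 7.60 CPM in wild-type 1 and 3. Deleted 2 was the highest library and deleted 6 the lowest, and the groups overlapped. In edgeR the change on the log2 scale came to -0.50 ± 0.73 (SE; adjusted p = 0.731), or -0.05 ± 0.34 (adjusted p = 0.947) once deleted 6 was left out. The ratio of Dnmt3a to Dnmt3b was 3.40, 4.67 and 6.91 on the log2 scale in deleted 2, 4 and 6, against 1.94 and 2.73 in wild-type 1 and 3, so it was higher in every deleted library. The difference of the means was 2.66 (exact two-sided permutation test, p = 0.2), and 1.70 without deleted 6.

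Per kilobase of exon, Dnmt1 held most of the summed Dnmt level in every library, and the share of Dnmt3a was larger in those labelled deleted. Dnmt3a made up 11.04%, 15.7% and 39.5% of the summed CPM per kb of the 3 Dnmt genes in deleted 2, 4 and 6, against 4.03% and 4.11% in wild-type 1 and 3. Dnmt1 made up 85.6%, 82.3% and 59.4% in deleted 2, 4 and 6, against 92.5% and 93.9% in wild-type 1 and 3. Dnmt3b stayed between 1.07% and 3.41% in the deleted libraries, against 2.02% and 3.43% in the wild-type libraries. The shares of Dnmt1 and Dnmt3a did not overlap between the labels, and deleted 6 was farthest from wild-type in both. These shares use the union of exons as length and depend on it. With the longest transcript as length, Dnmt1 and Dnmt3a were nearly level in deleted 6, at 26.2 and 23.8 CPM per kb.

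**Figure D2:**
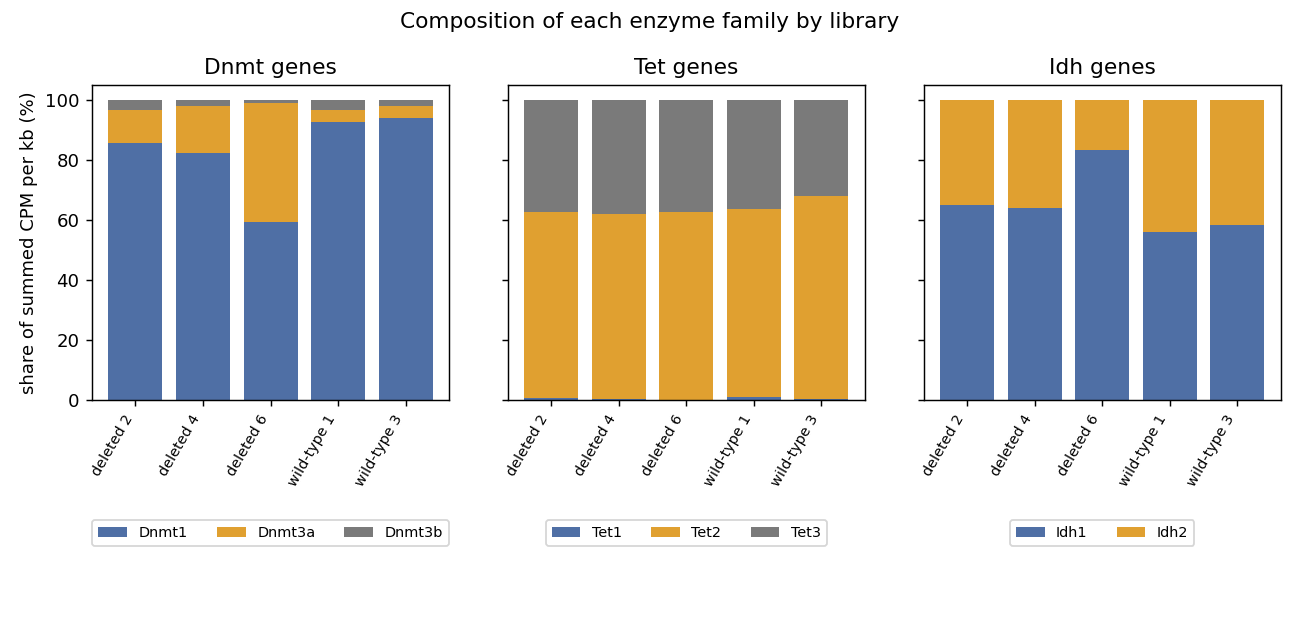
Share of each gene (vertical axis, percent) in the summed CPM per kb (union of exons) of its family, by library, with the libraries labelled deleted on the left of each panel. The Dnmt3a share is 11.04% to 39.5% in deleted and about 4% in wild-type libraries, the Tet shares are nearly level, and the Idh1 share is 83.4% in deleted 6.

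Tet2, the Tet dioxygenase most often mutated in human myeloid disease (ENSMUSG00000040943.11, chromosome 3, 133463679 to 133545139, minus strand), was at 76.6, 85.2 and 51.4 CPM in deleted 2, 4 and 6. In wild-type 1 and 3 it was at 75.4 and 90.1 CPM. Deleted 2 and 4 lay between the wild-type libraries, and deleted 6 lay below both. edgeR put its log2 fold change at -0.22 ± 0.27 (SE; adjusted p = 0.682), or at -0.02 ± 0.15 (adjusted p = 0.949) once deleted 6 was left out. Its window at the start held 57 CpG, and 99.85% of all windows held fewer.

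Tet3 (ENSMUSG00000034832.14, chromosome 6, 83362373 to 83459084, minus strand), the form known for oxidising the paternal genome after fertilisation, was at 45.5, 51.8 and 30.4 CPM in deleted 2, 4 and 6, against 43.2 and 42.4 CPM in wild-type 1 and 3. Deleted 2 and 4 were above both wild-type libraries and deleted 6 below. With all 5 libraries its log2 fold change stood at -0.01 ± 0.27 (SE; edgeR adjusted p = 0.987), and leaving out deleted 6 gave 0.20 ± 0.14 (adjusted p = 0.434). Tet2 and Tet3 kept nearly the same proportion to each other in the deleted libraries. Their log2 ratio was 0.75, 0.72 and 0.76 in deleted 2, 4 and 6, against 0.80 and 1.09 in wild-type 1 and 3. The difference of -0.20 had an exact two-sided permutation p of 0.1, the smallest that 3 against 2 libraries allow, and an adjusted p of 0.5 over the 5 ratios. It was -0.21 without deleted 6, -0.34 without wild-type 1 and -0.06 without wild-type 3.

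Tet1, the form prominent in embryonic stem cells (ENSMUSG00000047146.14, chromosome 10, 62804570 to 62908996, minus strand), was barely detected. It had 40, 8 and 2 counts in deleted 2, 4 and 6, against 48 and 20 counts in wild-type 1 and 3. These counts equal 0.701, 0.151 and 0.0452 CPM in the deleted libraries, against 1.16 and 0.360 CPM in wild-type 1 and 3, and 3 counts equal 0.0526 to 0.0723 CPM, so deleted 6 was under that floor. The groups overlapped. Its change between the labels in edgeR came to -1.31 ± 1.14 on the log2 scale (SE; adjusted p = 0.581), or -0.79 ± 0.85 (adjusted p = 0.611) once deleted 6 was left out. At this depth no difference was detectable. The log2 ratio of Tet2 to Tet1 averaged 8.69 ± 1.73 (SD, n = 3) in deleted and 6.996 ± 1.37 (SD, n = 2) in wild-type libraries (exact two-sided permutation test, p = 0.4). That difference of 1.69 was 0.96 without deleted 6 and ran from 0.72 without wild-type 1 to 2.66 without wild-type 3.

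Per kilobase, Tet2 and Tet3 made up nearly all of the Tet level. Tet2 held 61.9% to 62.6% of the summed Tet CPM per kb in the deleted libraries, against 62.6% and 67.6% in the wild-type libraries. Tet3 held 37.3% to 38.0% in the deleted libraries, against 36.3% and 32.1% in wild-type 1 and 3, and Tet1 held at most 0.620% in the deleted and 1.05% in the wild-type libraries.

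Idh2, the mitochondrial isocitrate dehydrogenase (ENSMUSG00000030541.15, chromosome 7, 80094846 to 80115392, minus strand), was at 231, 213 and 80.7 CPM in deleted 2, 4 and 6, against 248 and 271 CPM in wild-type 1 and 3. Each deleted library was under both wild-type ones, and deleted 6 was 3.21-fold below the wild-type mean. edgeR estimated its log2 fold change as -0.57 ± 0.47 (SE; adjusted p = 0.566), or as -0.21 ± 0.13 (adjusted p = 0.366) once deleted 6 was left out. Idh1, its cytosolic relative (ENSMUSG00000025950.15, chromosome 1, 65158616 to 65186500, minus strand), was at 457, 405 and 434 CPM in deleted 2, 4 and 6, against 337 and 407 CPM in wild-type 1 and 3. Deleted 4 lay just under wild-type 3, and deleted 6 lay inside the range of the other deleted libraries. Leaving deleted 6 in, edgeR gave Idh1 a log2 fold change of 0.22 ± 0.21 (SE; adjusted p = 0.611), and leaving it out gave 0.22 ± 0.16 (adjusted p = 0.420).

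Idh1 and Idh2 differed in deleted 6 more than in any other library. The log2 ratio of Idh1 to Idh2 was 0.99, 0.92 and 2.43 in deleted 2, 4 and 6, against 0.45 and 0.59 in wild-type 1 and 3. It was higher in each deleted library, with a difference of 0.93 (exact two-sided permutation test, p = 0.3), and 0.44 without deleted 6. Idh1 held 64.9%, 63.9% and 83.4% of the summed CPM per kb of the pair in deleted 2, 4 and 6, against 56.0% and 58.4% in wild-type 1 and 3. For the 5 ratios tested, all adjusted p-values were 0.5, and the ratio of Dnmt1 to Uhrf1 had an exact permutation p of 0.5.

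**Figure D3:**
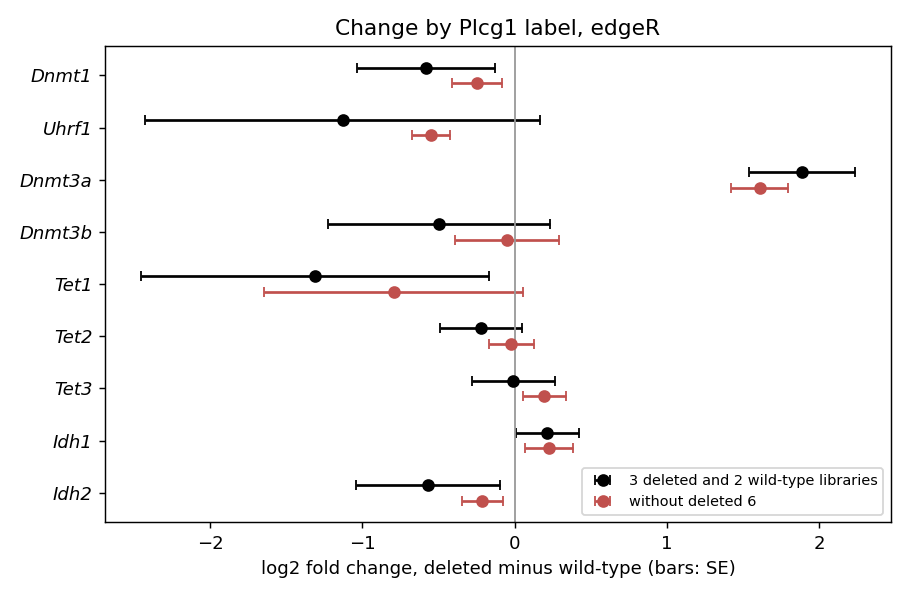
Log2 fold change of each member, deleted minus wild-type (horizontal axis, edgeR), with all 5 libraries (black) and without deleted 6 (red), and bars of 1 SE on each side. Dnmt3a lies at 1.89 and 1.61, several times its SE in both, and the error of Uhrf1 is 1.30 with deleted 6 and 0.13 without it.

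Read together, 0 of the 9 members were called in either direction with all 5 libraries, where edgeR called 0% of the 16120 genes higher and 0% lower. An unadjusted p under 0.05 was reached in edgeR by 1 member in the higher direction (Dnmt3a) and 0 in the lower, against 9.44% and 5.42% of all genes. DESeq2 called 1 member higher and 0 lower, against 5.75% and 3.05% of all genes, and limma-voom likewise 1 and 0, against 7.63% and 5.87%. Without a filter on low counts edgeR called 1 and 0, against 0.539% and 0.38% of 30253 genes. Without deleted 6 edgeR called 1 member higher (Dnmt3a) and 1 lower (Uhrf1), against 7.89% and 5.07% of 15787 genes. In 1 of 9 members all 3 deleted libraries exceeded both wild-type ones, against 22.4% of all genes, and in 3 of 9 (Dnmt1, Idh2 and Uhrf1) they were under both, against 23.7%. These counts are not read as a result about the members as a group. The median log2 fold change of the members was -0.50, and -0.05 without deleted 6, against 0.01 and -0.01 over all tested genes.

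Per kilobase of exon the order of levels was nearly the same under both labels, with Dnmt3a changing place. In the deleted libraries the mean levels were 156 CPM per kb for Idh1, 67.6 for Idh2, 42.0 for Dnmt1, 18.4 for Uhrf1, 10.2 for Dnmt3a, 4.21 for Tet2, 2.55 for Tet3, 1.26 for Dnmt3b and 0.0193 for Tet1. In this order, over the union of exons, only the neighbours Idh1 and Idh2, Dnmt3a and Tet2, and Dnmt3b and Tet1 had ranges that did not overlap. In the wild-type libraries the mean levels were 134 CPM per kb for Idh1, 100.1 for Idh2, 62.8 for Dnmt1, 40.3 for Uhrf1, 4.91 for Tet2, 2.75 for Dnmt3a, 2.57 for Tet3, 1.79 for Dnmt3b and 0.0491 for Tet1, and only Dnmt3a and Tet3 overlapped. In deleted 6 Uhrf1 was in place 7, against place 4 in the other 4 libraries. With the longest transcript as length, Dnmt3a and Tet3 no longer overlapped in the wild-type libraries, while Idh1 and Idh2 did. In the deleted libraries that length also set Tet2 apart from Tet3 and Tet3 apart from Dnmt3b.

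The pattern of Uhrf1 ran with proliferation genes. All 24 genes of an S phase and proliferation list were lower in every deleted library than in both wild-type libraries, against 23.7% of all tested genes, and their summed level was 4051, 3704 and 381 CPM in deleted 2, 4 and 6, against 5565 and 6207 CPM in wild-type 1 and 3. With all 5 libraries edgeR called 0 of 24 in either direction (median log2 fold change -1.08), and 3 were lower at an unadjusted p under 0.05. Without deleted 6 edgeR called 9 lower and 0 higher (median -0.56), against 5.07% and 7.89% of all genes. Among the 9, the replication helicase subunit Mcm7 fell by 0.77 ± 0.16 on the log2 scale (adjusted p = 0.0258), and the ribonucleotide reductase subunit Rrm2 fell by 0.78 ± 0.15 (adjusted p = 0.0229). Over all 5 libraries these had -1.32 ± 1.05 and -1.37 ± 1.38 (edgeR adjusted p = 0.552 and 0.624). The others were Mki67, Mcm5, Rrm1, Cdc6, Cdt1, Aurkb and E2f2. E2f2, an E2F activator of S phase genes, was at 18.6, 23.9 and 12.03 CPM in deleted 2, 4 and 6, against 56.0 and 70.7 CPM in wild-type 1 and 3, and fell by 1.57 ± 0.20 without deleted 6 (edgeR adjusted p = 0.00475, with -1.80 ± 0.33 and 0.157 over all 5). E2f1 was at 63.5, 63.4 and 59.0 CPM in deleted 2, 4 and 6, against 82.7 and 90.0 CPM in wild-type 1 and 3, so it was not low in deleted 6 as Uhrf1 was. Whether the level of proliferation has a part in the Uhrf1 and Dnmt1 values was not tested.

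**Figure D4:**
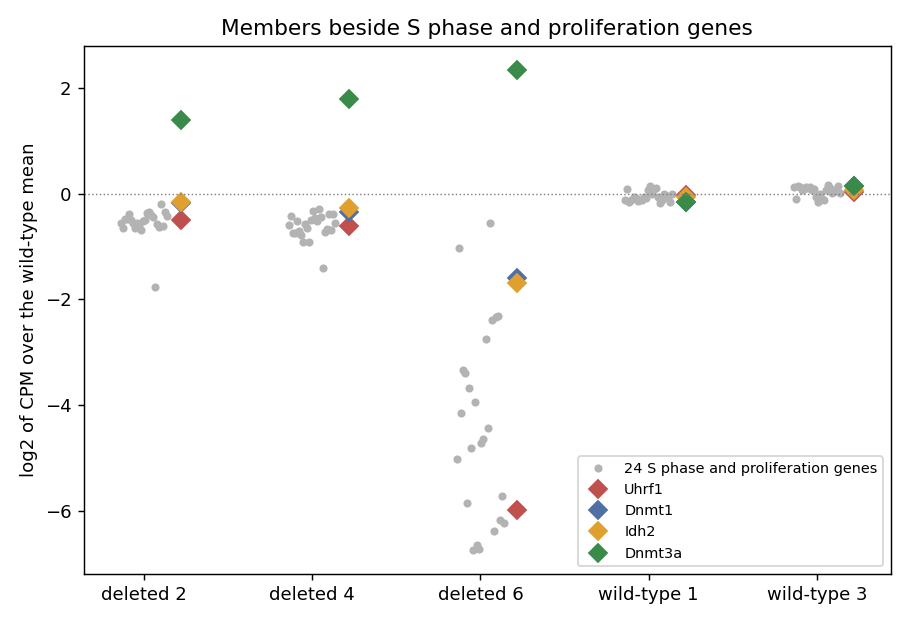
Log2 of the CPM over the mean of the wild-type libraries (vertical axis) in each library, for the 24 S phase and proliferation genes (grey circles) and 4 members (coloured diamonds). Deleted 6 has most of the grey genes and Uhrf1 far below 0, Dnmt1 and Idh2 nearly on the same value, and Dnmt3a above 0 as in deleted 2 and 4.

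Genes whose pattern over the 5 libraries was most like each member were found among 8798 genes by the root mean square difference of log2 CPM, each centred on its mean. For Uhrf1 these were Pif1, a DNA helicase (0.05), Esco2, which acetylates cohesin (0.07), and the mitotic kinase Aurkb (0.07). Aurkb was at 126, 120 and 2.67 CPM in deleted 2, 4 and 6, against 187 and 198 CPM in wild-type 1 and 3. For Dnmt1 they were Arhgap11a (0.03), Tbc1d31 (0.04) and the DNA ligase Lig3 (0.05), and for Idh2 the histone chaperone Rbbp7 (0.05), the mitotic regulator Fzr1 (0.05) and Ilf2 (0.05). Dnmt1 and Idh2 were also the most alike pair among the members (0.07), followed by Tet2 and Tet3 (0.13).

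For Dnmt3a the likest genes were Dock4, an exchange factor for Rac (0.10), Arhgap12 (0.11), and the calcium-activated potassium channel Kcnn4 (0.13). Dock4 was at 31.8, 45.9 and 72.6 CPM in deleted 2, 4 and 6, against 11.2 and 13.1 CPM in wild-type 1 and 3. There were 21 genes within 0.2 of Dnmt3a, against 379 for Dnmt1, 1164 for Tet2 and 1692 for Idh1, but 28 for Uhrf1, 2 for Dnmt3b and 0 for Tet1, so having few such genes was not particular to Dnmt3a. Tet2 was most like Senp7, Zfp407 and Nr2c2 (0.03 to 0.05), Tet3 most like Magt1, Ppp6r3 and Setd5 (0.05 to 0.07), and Idh1 most like Ptcd1, Tada3 and Ern1 (0.03 each). Dnmt3b was most like Prmt1, Lyar and Pdia5 (0.19 to 0.20). For Tet1 the nearest were Zfp783, Ydjc and Dctd, at 0.63 to 0.68, and with so few Tet1 counts this is no close match.

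The genes that work beside the writers are set here against the shares over all tested genes, of which edgeR without deleted 6 called 7.89% higher and 5.07% lower, for this and the next lists. Of 17 partners of methylation 16 were tested, and in 13 of these all 3 deleted libraries were under both wild-type ones, with 1 above, against 23.7% and 22.4% of all tested genes. With all 5 libraries edgeR called none (median log2 fold change -0.57, the unadjusted p being under 0.05 in 1 higher and 2 lower genes). Without deleted 6 it called 4 lower and 0 higher (median -0.30). The remodeller Hells, needed for methylation of repeats, was at 81.0, 76.2 and 3.93 CPM in deleted 2, 4 and 6, against 113 and 117 CPM in wild-type 1 and 3, and fell by 0.54 ± 0.12 without deleted 6 (edgeR adjusted p = 0.0376, with -1.10 ± 1.10 and 0.624 over all 5). Its partner Cdca7 was at 122, 104 and 2.06 CPM in the deleted libraries, against 179 and 196 CPM in wild-type 1 and 3, and fell by 0.72 ± 0.14 without deleted 6 (edgeR adjusted p = 0.0239, with -1.30 ± 1.35 and 0.635 over all 5). The related Cdca7l and the replication ligase Lig1 were the other called genes, at -0.71 and -0.56 without deleted 6, and at -0.79 and -1.10 (adjusted p = 0.203 and 0.590) with all 5.

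Partners of Dnmt3a and Uhrf1 did not all share this direction. Dnmt3l, a catalytically inactive cofactor of Dnmt3a, was at 14.0, 14.3 and 8.71 CPM in deleted 2, 4 and 6, against 21.2 and 18.5 CPM in wild-type 1 and 3 (log2 fold change -0.69, edgeR adjusted p = 0.358, or -0.48 and 0.135 without deleted 6). Its direction was thus opposite to that of Dnmt3a, and edgeR with the filter on low counts called neither with all 5 libraries. Uhrf2, a relative of Uhrf1, was at 108, 127 and 132 CPM in deleted 2, 4 and 6, against 83.5 and 89.3 CPM in wild-type 1 and 3, so it was higher in every deleted library where Uhrf1 was lower (log2 fold change 0.50 ± 0.18, edgeR adjusted p = 0.311, or 0.46 ± 0.14 and 0.0866 without deleted 6). Pcna, the replication clamp, had a log2 fold change of -0.68 ± 0.23 (edgeR adjusted p = 0.303), or -0.52 ± 0.15 (adjusted p = 0.0739) without deleted 6. Zfp57, a guardian of imprints, was at most at 0.561 CPM in any library.

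Readers of methylated and unmethylated CpG had a median log2 fold change near 0. Of 16 tested, edgeR called none with all 5 libraries (median log2 fold change 0.02, the unadjusted p being under 0.05 in 1 higher and 1 lower genes), and 1 higher and 1 lower without deleted 6 (median 0.08). In 4 all 3 deleted libraries exceeded both wild-type ones and in 5 they were below, against 22.4% and 23.7% of all tested genes, so neither count is far from the share over all genes. Kmt2a, a histone methyltransferase with a CXXC domain for unmethylated CpG, was at 49.8, 45.4 and 57.1 CPM in deleted 2, 4 and 6, against 83.4 and 94.7 CPM in wild-type 1 and 3. It fell by 0.89 ± 0.14 without deleted 6 (edgeR adjusted p = 0.0108), and its log2 fold change with all 5 was -0.81 ± 0.18 (adjusted p = 0.200). Cxxc5 was at 9.88, 5.21 and 0.611 CPM in deleted 2, 4 and 6, against 1.23 and 1.117 CPM in wild-type 1 and 3, and rose by 2.70 ± 0.39 without deleted 6 (edgeR adjusted p = 0.00836, with 2.16 ± 1.14 and 0.417 over all 5). Zbtb4, which binds methylated CpG, had a log2 fold change of 1.45 ± 0.51 with all 5 libraries (edgeR adjusted p = 0.307), or 0.98 ± 0.30 (adjusted p = 0.0807) without deleted 6. Mbd4, a glycosylase that also reads methylated CpG, had -0.87 ± 0.43 (edgeR adjusted p = 0.398), or -0.55 ± 0.18 (adjusted p = 0.103) without deleted 6.

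Genes of demethylation and base excision repair, which act after the Tet enzymes, had a median log2 fold change of -0.06, and 0.03 without deleted 6. Of 17 tested, edgeR called none with all 5 libraries (unadjusted p under 0.05 in 4 higher and 0 lower genes) and 2 higher and 0 lower without deleted 6, and in 6 all 3 deleted libraries exceeded both wild-type ones and in 5 they were under both, against 22.4% and 23.7% of all tested genes. Gadd45a, a stress-induced protein tied to repair and demethylation, was at 23.2, 32.5 and 22.6 CPM in deleted 2, 4 and 6, against 14.6 and 13.9 CPM in wild-type 1 and 3, and rose by 0.98 ± 0.21 without deleted 6 (edgeR adjusted p = 0.0306, with 0.87 ± 0.25 and 0.266 over all 5). The other called gene, Smap2, is a protein of vesicle traffic and not of demethylation. Tdg, the glycosylase that removes the oxidised bases made by Tet enzymes, was at 12.9, 13.5 and 6.44 CPM in deleted 2, 4 and 6, against 12.9 and 16.1 CPM in wild-type 1 and 3 (log2 fold change -0.41, edgeR adjusted p = 0.611, or -0.13 and 0.747 without deleted 6). The repair glycosylase Neil1 had a log2 fold change of -0.53 ± 0.24 (edgeR adjusted p = 0.374), or -0.59 ± 0.21 (adjusted p = 0.121) without deleted 6.

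Metabolism that feeds these enzymes was described by 2 lists. Of 25 genes that make or use 2-oxoglutarate, edgeR called none with all 5 libraries (median log2 fold change -0.11, the unadjusted p being under 0.05 in 0 higher and 1 lower genes) and 1 higher and 2 lower without deleted 6 (median -0.07). In 1 all 3 deleted libraries exceeded both wild-type ones and in 11 they were below, against 22.4% and 23.7% of all tested genes. Psat1, a serine pathway transaminase that releases 2-oxoglutarate, was at 212, 176 and 17.1 CPM in deleted 2, 4 and 6, against 334 and 311 CPM in wild-type 1 and 3, and fell by 0.72 ± 0.15 without deleted 6 (edgeR adjusted p = 0.0270, with -1.26 ± 0.95 and 0.532 over all 5). Bcat1, which consumes 2-oxoglutarate in breaking down branched-chain amino acids, was at 38.0, 36.5 and 0.0226 CPM in deleted 2, 4 and 6, against 22.1 and 14.6 CPM in wild-type 1 and 3. It rose by 1.04 ± 0.22 without deleted 6 (edgeR adjusted p = 0.0298, with 0.44 ± 1.86 and 0.910 over all 5), while in deleted 6 it was under the floor of 3 counts. The alanine transaminase Gpt fell by 1.03 ± 0.26 without deleted 6 (edgeR adjusted p = 0.0466, with -1.16 ± 0.31 and 0.244 over all 5). Gpt2 had a log2 fold change of -0.47, Aco1 of 0.54 and Sdhb of 0.37 with all 5 libraries, and -0.33, 0.23 and 0.12 without deleted 6, none of them called.

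Of 21 tested genes of methyl donor metabolism, which supplies S-adenosylmethionine, edgeR called none with all 5 libraries (median log2 fold change -0.33, the unadjusted p being under 0.05 in 0 higher and 2 lower genes). In 12 all 3 deleted libraries were under both wild-type ones and in 2 above, against 23.7% and 22.4% of all tested genes. Without deleted 6 edgeR called 3 lower and 0 higher (median -0.18). Shmt1 and Shmt2, which pass a carbon unit from serine to folate, fell by 0.80 ± 0.14 and 0.66 ± 0.16 without deleted 6 (edgeR adjusted p = 0.0143 and 0.0420), as did the thymidylate synthase Tyms, by 0.61 ± 0.13 (edgeR adjusted p = 0.0304). Over all 5 libraries the log2 fold changes of Shmt1, Shmt2 and Tyms were -1.36, -1.17 and -1.14 (edgeR adjusted p of 0.519 to 0.547). Shmt1 was at 59.6, 51.8 and 3.48 CPM in deleted 2, 4 and 6, against 101 and 95.3 CPM in wild-type 1 and 3. The folate enzyme Mthfd1 had a log2 fold change of -0.81 ± 0.29 and Mtap, of methionine salvage, 0.31 ± 0.17 with all 5 libraries (edgeR adjusted p = 0.310 and 0.436). Without deleted 6 they had -0.59 and 0.36 (edgeR adjusted p = 0.0514 and 0.156). Nnmt, which uses up methyl groups, was at most at 0.105 CPM in the deleted libraries, against 0.434 and 0.576 CPM in the wild-type libraries. In deleted 4 and 6 it was under the floor of 3 counts, at 0.0189 and 0.0226 CPM. The log2 fold change of Nnmt was -3.27 ± 0.80 (edgeR adjusted p = 0.218), or -2.95 ± 0.79 (adjusted p = 0.0576) without deleted 6.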

How the data were processed

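Per the labels' protocols, RNA was made into libraries with a low-input poly(A)-primed kit and Nextera XT, neither of which marks strand, and read single-end. The mm10 genome, STAR, bcl2fastq 1.8.4 and DESeq2 1.12.4 are named, per the submitters' processing notes. The authors deposited whole-number read counts per library, a normalized signal (for all 27526 genes the counts over 1 factor for each library), and values on a log2 scale, of which the sources used here do not give the transformation. The tests used the counts. The deposited signal served as an alternative for levels, and the deposited log2 values were only read for the members. The 5 rows that name no gene were left out: reads without a feature were 5.89% to 8.09%, ambiguous reads 2.36% to 2.78%, unaligned reads 2.48% to 4.13% and multiply aligned reads 13.0% to 15.1% of a library.

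Groups came from the genotype labels. Genes were kept with edgeR's filterByExpr, scaled by TMM, and tested with the quasi-likelihood F test (edgeR 4.0.16, limma 3.58.1, R 4.3.3). All 5 libraries left 3 residual degrees of freedom, and fits with libraries left out had fewer. Benjamini-Hochberg adjustment covered all tested genes, and calls needed an adjusted p under 0.05. SE is the size of the log2 fold change over the square root of F. DESeq2 1.42.0, limma-voom, DESeq2's size factors in edgeR, no filter, a filter at 5 CPM in at least 2 libraries, lane 4 alone and each library left out were alternatives. Log2 CPM for likeness used a prior count of 2, while the ratios were taken from CPM with no prior count. No library was a copy of another (chi-square per gene of 50.2 or more). Limits from 3 counts cover counting error only, as PCR copies were not told apart. The fitting was checked on simulated counts. Lengths come from GENCODE M21 on GRCm38 and start-site windows from RefSeq on GRCm38.p6, with all 9 members matched.

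The members and the 12 other gene lists were chosen with earlier results of these data known. The rule for named genes was all members, up to 2 tested genes each way per list by smallest unadjusted p, and the 3 likest genes whose log2 CPM averaged at least 3. Other genes, such as list members called without deleted 6, Plcg1, Kit, Xist, Runx1t1, Dnmt3aos, Dnmt3l and Tdg, were named after their values were seen.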

Additional observations from a re-analysis of the deposited data

How the results depend on the processing

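The number of calls depended on the test and on deleted 6. edgeR with all 5 libraries called 0 genes higher and 0 lower, against 163 and 115 with no filter on low counts, 927 and 492 with DESeq2, 1230 and 947 with limma-voom and 211 and 131 in lane 4. Leaving out 1 library gave 0 to 1245 genes higher and 0 to 800 lower, the highest without deleted 6. Members called higher were 1 (Dnmt3a) with no filter, DESeq2 and limma-voom and 0 to 1 with a library left out, and members called lower were 0 to 1 there (Uhrf1, without deleted 6).

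The log2 fold change of Dnmt3a was past the threshold at 1.89 with no filter, 1.88 with DESeq2 and 1.72 with limma-voom, and lay between 1.61 and 2.09 with a library left out. Uhrf1 lay between -1.58 and -0.55 there. Dnmt3b turned to 0.21 and Tet1 to 0.26 in lane 4. Tet3 turned to 0.22 with limma-voom and 0.21 in lane 4, and lay between -0.17 and 0.20 with a library left out. None of these reversed values was called, and the cause was not tested. Dnmt1, Tet2, Idh1 and Idh2 kept their direction and were not called in any of 11 alternatives. Tet1 was removed by the stricter filter and has no value there. The 5 ratio differences kept their sign in 25 alternatives, but without deleted 6 that of Dnmt1 to Uhrf1 was 0.31, that of Idh1 to Idh2 0.44 and that of Dnmt3a to Dnmt3b 1.70. Of 132 list medians, 129 moved by less than the SD of the list mean over the deleted libraries, which deleted 6 widens. Counts of calls in the lists moved in 41 of 132 alternatives. No paired analysis was possible because the labels' numbers 1 and 3 for wild-type and 2, 4 and 6 for deleted libraries share no replicate. Depth limits Tet1, with 2 to 48 counts per library.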
